A study of Mus musculus with 2 samples.

Results

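The activin and follistatin axis was followed across the cell classes of healing mouse skin through 7 genes, out of 27998 in the gene list of both count matrices. The members were Inhba, Inhbb, Fst, Fstl1, Fstl3, Acvr1b and Acvr2a, found by their symbols, and each symbol matched 1 row. They were chosen from measured values, namely their CPM in each cell class of each library (UMIs of the gene per 1000000 UMIs of the class), so those levels are given as a description with no test. A UMI is a tag that marks 1 captured mRNA molecule.

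The data were single-cell RNA counts from 2 libraries of C57BL/6J wild-type male mice aged 6 to 8 weeks that had received a full-thickness circular wound 1.8 cm across on the back. Library WT_LW came from wounds given PBS by its label and by the methods of the study, while a figure legend names a control oligonucleotide for wounds of this group. Library TLR9agonist_LW came from wounds given ODN2395, a synthetic CpG oligonucleotide that activates the DNA sensor TLR9, and treatment in both fell on days 0, 3 and 6. Skin from the wound centre was taken 2 days after the scab had come off, and cells of several mice were pooled before loading. Each treatment thus had 1 library, so no p-value was possible, and every interval below is an exact 95% interval that covers counting error only. The intervals of levels and ratios leave out variation between cells, although few cells often held much of a gene's UMIs. Overlap of such intervals, or its absence, thus describes counts and does not settle an order of classes. Differences between mice, wounds and libraries cannot be told apart from the treatment.

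Activins are secreted dimers of the TGF-beta family, built from beta A subunits (Inhba) or beta B subunits (Inhbb). They bind a type II receptor such as Acvr2a, which recruits the type I receptor Acvr1b, and the signal is passed on by SMAD2 and SMAD3. Follistatin (Fst) and the follistatin-like protein Fstl3 bind activin outside the cell and keep it from its receptor, whereas Fstl1, despite its name, is mainly known as a mesenchymal glycoprotein. In skin, activin is known for its induction after wounding and for its effects on granulation tissue, on keratinocytes and on hair follicles.

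The genes lie on chromosomes 13 (Inhba, Ensembl ENSMUSG00000041324, and Fst, ENSMUSG00000021765), 1 (Inhbb, ENSMUSG00000037035), 16 (Fstl1, ENSMUSG00000022816), 10 (Fstl3, ENSMUSG00000020325), 15 (Acvr1b, ENSMUSG00000000532) and 2 (Acvr2a, ENSMUSG00000052155) of the reference annotation for build GRCm38. The stretches upstream of the start sites of the beta subunit genes are shown because these genes supply the same family of dimers and shared fibroblasts and pericytes but not macrophages and endothelial cells. Each run is the 250 bases before the RefSeq start site in build GRCm38.p6, written 5′ to 3′ on the strand of the gene, with CG dinucleotides in capitals. The Inhba stretch is chr13:16011601-16011850 on the plus strand and the Inhbb stretch is chr1:119422249-119422498 on the minus strand.
Inhba: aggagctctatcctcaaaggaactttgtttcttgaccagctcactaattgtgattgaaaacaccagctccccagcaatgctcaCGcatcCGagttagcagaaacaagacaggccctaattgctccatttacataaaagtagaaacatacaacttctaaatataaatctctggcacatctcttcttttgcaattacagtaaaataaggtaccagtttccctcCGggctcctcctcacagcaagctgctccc
Inhbb: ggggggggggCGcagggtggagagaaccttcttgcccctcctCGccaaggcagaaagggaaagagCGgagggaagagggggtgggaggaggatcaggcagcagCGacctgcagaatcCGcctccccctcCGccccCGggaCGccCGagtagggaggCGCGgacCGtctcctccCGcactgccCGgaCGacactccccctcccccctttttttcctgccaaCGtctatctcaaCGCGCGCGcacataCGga
The Inhba stretch held 3 CG dinucleotides at a GC content of 43.2%, and the Inhbb stretch held 21 at 68.0%, where the median over all 32851 such stretches was 6 CG dinucleotides and 52.4% GC. Neither held the AP-1 letters TGANTCA, the cyclic AMP element TGACGTCA or the SMAD letters CAGAC on either strand. Those letters were present in 6.75%, 1.55% and 42.2% of all stretches. Of the other members, Fstl3 held 2 SMAD matches and Acvr2a held 1, while Fstl1 and Acvr1b held no match of any of the 3 kinds.

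After filtering and doublet removal, 10395 cells with a median of 5056 UMIs were used in WT_LW and 11811 cells with a median of 5680 UMIs in TLR9agonist_LW, and 30 of their barcodes occurred in both libraries. A cell was assigned to 1 of 10 classes when at least 3 of 8 class markers were detected in it and at least 2 more than of any other class. This marker gate took 510 cells of WT_LW and 292 of TLR9agonist_LW as pericytes, 1136 and 608 as macrophages, 758 and 2048 as keratinocytes, 607 and 226 as Schwann cells, and 849 and 1967 as fibroblasts. It left out 2748 and 4336 cells. All 8 pericyte markers were found in gated pericytes of both libraries, and summed to 16202 CPM in WT_LW and 10862 in TLR9agonist_LW.

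Keratinocyte markers, however, were found in every class and more so in TLR9agonist_LW. In gated T cells, which should lack them, they summed to 576 CPM in WT_LW and 2207 in TLR9agonist_LW. Of the gated keratinocytes only 67.5% and 57.0% lay in cell clusters that carried keratinocyte markers. The macrophage gate took only 121 of 517 cells in a macrophage cluster of TLR9agonist_LW led by F10, Ccl6, Ccl9 and Clec4e. For these reasons levels are also given for whole clusters named by the same markers, an assignment chosen after seeing the data, wherever the value differed much.

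T cells were taken as the reference for the low level that free RNA from other cells may give. In gated T cells Inhba stood at 3.91 CPM in WT_LW and 4.31 in TLR9agonist_LW, and was detected in 1.95% and 2.45% of cells at median depths of 4359 and 4918.5 UMIs. Fst stood at 4.04 and 9.43 and was detected in 1.98% and 4.97% of T cells. Levels of this size in another class were read as background.

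Inhba, the beta A subunit, was found in macrophages, fibroblasts and pericytes, and its order among them differed between the libraries. By the marker gate, among classes with at least 50 cells in the library, it was highest in WT_LW in fibroblasts (136 CPM, interval 130 to 142) and macrophages (134, interval 127 to 141), whose intervals overlapped. Both stood above dendritic cells (32.6, interval 23.2 to 44.5) and pericytes (30.8, interval 25.8 to 36.6), which overlapped in turn. This order changed with whole clusters, where macrophages of WT_LW (204, interval 196 to 212) stood above fibroblasts (138, interval 132 to 144) without overlap. Dendritic cells then had 12.7, under pericytes at 33.2. The 46 gated neutrophils of WT_LW, left out of the gated order, had 190 CPM (interval 119 to 288) from 22 UMIs. The neutrophil cluster of WT_LW, with 53 cells of which 43 were gated as neutrophils, had only 40.5 (interval 14.9 to 88.2) from 6 UMIs. Most of the 22 UMIs thus lay in gated cells outside that cluster. In TLR9agonist_LW macrophages (278, interval 264 to 293) came first, followed by pericytes (242, interval 224 to 262) and then fibroblasts (97.6, interval 93.9 to 101), whose interval overlapped that of neutrophils (83.4, interval 52.2 to 126). Schwann cells, with 8 and 4 UMIs, were at or under the background level in both libraries.

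**Figure D1:**
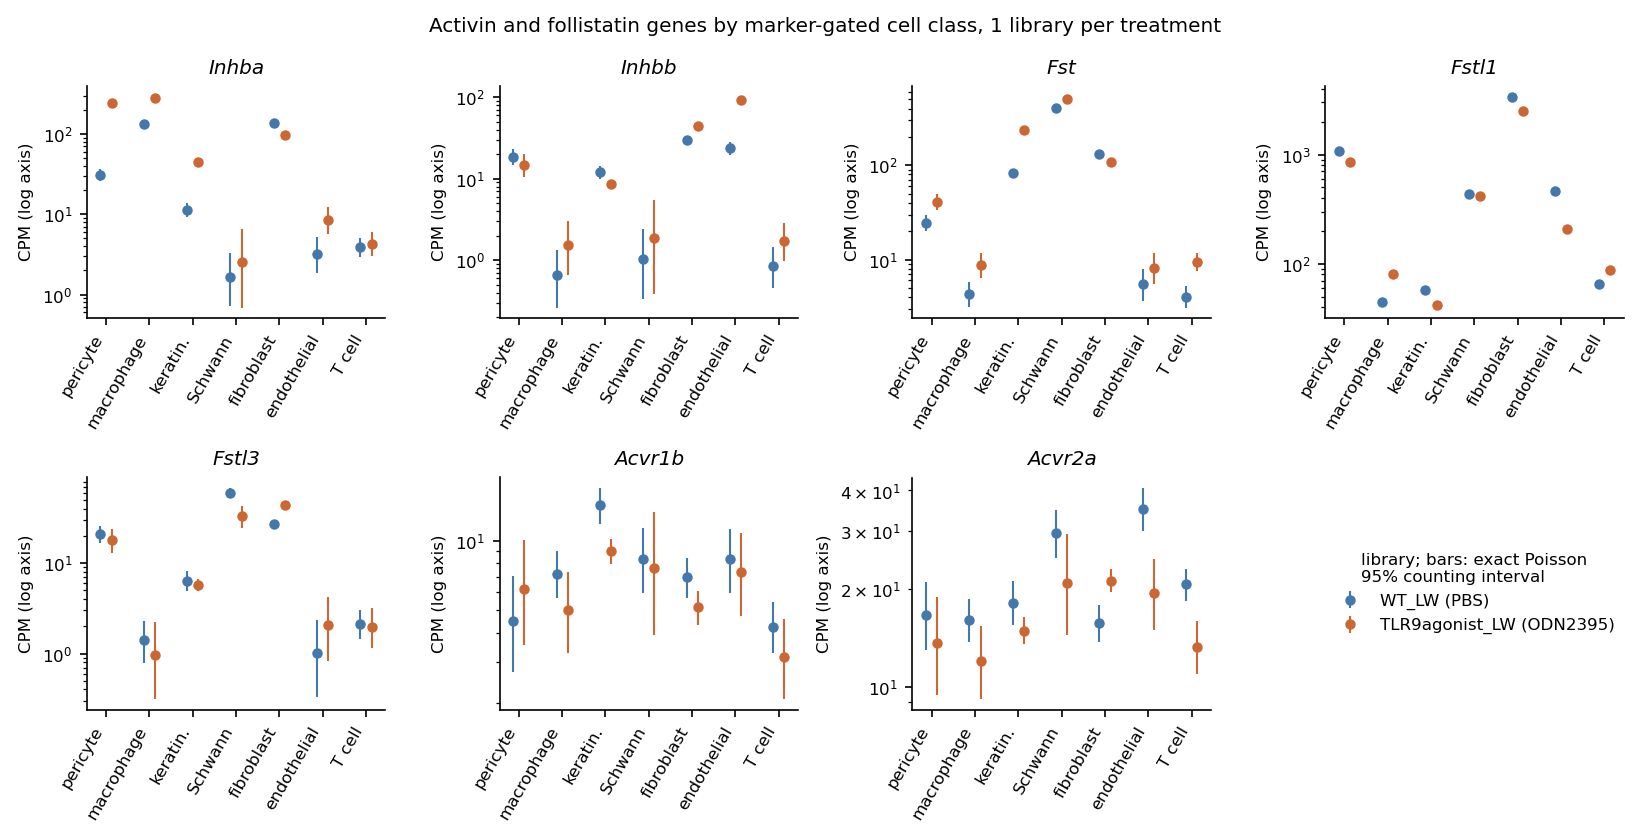
CPM (log axis) of each of the 7 genes in 7 marker-gated cell classes, with WT_LW in blue and TLR9agonist_LW in orange and bars for the exact Poisson 95% interval, which is hidden by the point where counts are high. Inhba in pericytes went from 30.8 in WT_LW to 242 in TLR9agonist_LW, while Fstl1 was led by fibroblasts in both.

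Among members with at least 50 UMIs in a whole gated class, the widest gap between the libraries was that of Inhba in pericytes, the mural cells of small vessels. It was counted with 130 UMIs in WT_LW and 625 in TLR9agonist_LW, a ratio of 7.86, or 2.98 on the log2 scale (interval 2.70 to 3.26). In whole pericyte clusters, which held 725 and 482 cells, the levels were 33.2 and 318 CPM and the log2 ratio was 3.26 (interval 3.03 to 3.50). Inhba was detected in 17.3% of gated pericytes of WT_LW and in 40.1% of those of TLR9agonist_LW. When each cell was thinned to 1500 UMIs the shares were 3.67% and 16.1%, with 19 and 0 shallower cells left out. No gated pericyte of WT_LW held more than 10 Inhba UMIs and 16 of TLR9agonist_LW did, and 56.8% of the UMIs there came from 15 cells.

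Markers of the other Inhba-bearing classes were set beside this gap. Summed over 8 genes, macrophage markers stood at 142 CPM in gated pericytes of WT_LW and 106 in those of TLR9agonist_LW, and fibroblast markers at 1522 and 1461. These sums cover all gated pericytes and not the few cells that held most of the Inhba UMIs. The macrophage markers also gated only 121 of 517 cells of the F10-led cluster, which was high for Inhba. The part of RNA from macrophages or fibroblasts in the gap was thus not tested. Keratinocyte markers were higher in pericytes of TLR9agonist_LW (1454 against 383), and so were neutrophil markers (1154 against 80.9), as they were in T cells (1780 against 197). The part of these, and of the lower pericyte markers, in the result was not tested. Within pericytes, cells with more capillary markers (Kcnj8, Abcc9, Higd1b and others) had 20.9 and 267 CPM of Inhba. Cells with more smooth muscle markers (Myh11, Cnn1, Acta2 and others) had 38.1 and 513, from 29 and 15 cells with 9 and 72 UMIs.

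In macrophages Inhba was 2.08 times as high in TLR9agonist_LW as in WT_LW, a log2 ratio of 1.06 (interval 0.95 to 1.16), with 1429 and 1441 UMIs. The share of gated macrophages with an Inhba UMI was 18.2% in WT_LW and 13.7% in TLR9agonist_LW. That share depends on the gate, which took 620 of 895 cells of the Inhba-high cluster of WT_LW and 121 of 517 in TLR9agonist_LW. In whole macrophage clusters 303 of 1330 cells of WT_LW and 271 of 1178 of TLR9agonist_LW held an Inhba UMI. Few gated cells carried most of the Inhba UMIs, since 5% of them held 77.7% and 87.6%. Gated macrophages with an Inhba UMI held a median of 2 in WT_LW and 6 in TLR9agonist_LW, or 3 and 6 in whole clusters. The libraries thus differed in the amount per Inhba-bearing cell more than in the share of such cells.

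Inhba was high in the cells with inflammatory markers (Mmp12, Arg1, Spp1, Ptgs2, Slc7a2 and Atp6v0d2). Gated macrophages with more of them than of the Mrc1 set (Mrc1, Folr2, Ccl8, Cd163, Cbr2, F13a1) had 457 CPM of Inhba in WT_LW and 1067 in TLR9agonist_LW, in 144 and 60 cells. Macrophages with more of the Mrc1 set had 13.8 and 8.67, in 283 and 304 cells, and their direction turned with whole clusters (13.4 and 26.2). The clusters showed the same split. The macrophage cluster of WT_LW led by Chil3, F10 and Cxcl3 stood at 296 and the cluster of TLR9agonist_LW led by F10, Ccl6 and Ccl9 at 810, whereas the cluster of WT_LW led by Pf4 and Fcrls stood at 16.3 and those of TLR9agonist_LW led by Ms4a7, Pf4 and C1q genes at 20.3 and 15.7. With whole clusters the macrophage level was 204 in WT_LW and 450 in TLR9agonist_LW, and the log2 ratio was 1.14 (interval 1.07 to 1.21). Where a cluster was instead given to the class of over 50% of its cells, the F10 cluster of TLR9agonist_LW fell out of the class. The Inhba-high cluster of WT_LW led by Chil3 stayed in, and the log2 ratio turned to -3.33 between unlike sets of clusters. The direction in macrophages thus rested on whether the F10 cluster of TLR9agonist_LW was counted.

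**Figure D2:**
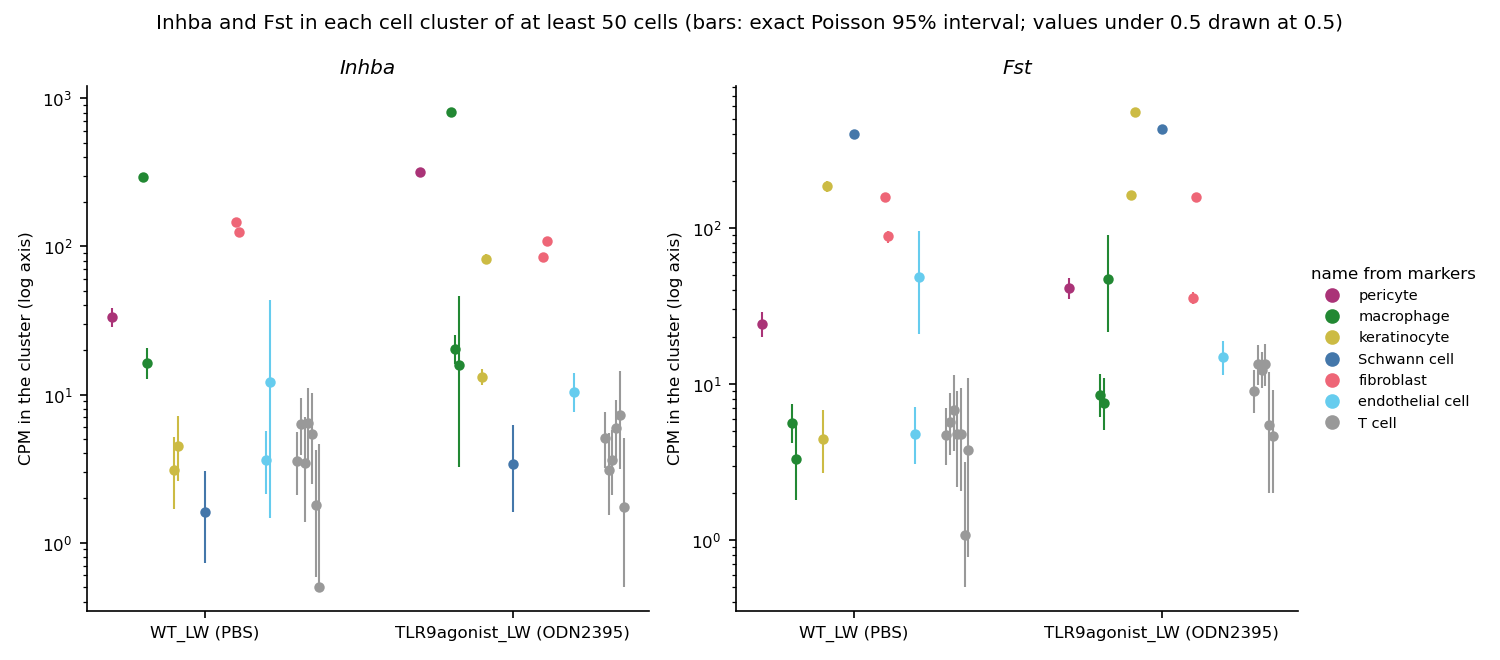
CPM of Inhba (left) and Fst (right) on a log axis in the clusters of 7 cell classes with at least 50 cells, by library, coloured by the class its markers name, with exact Poisson 95% intervals. Among macrophage clusters (green) 1 in each library stands high for Inhba, at 296 and 810, and the keratinocyte clusters (yellow) led by Krt15 stand at 184 in WT_LW and 552 in TLR9agonist_LW for Fst.

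Inhba in keratinocytes was low in WT_LW and above the T cell level in TLR9agonist_LW. Gated keratinocytes gave 11.5 and 44.8 CPM, from 104 and 1342 UMIs, and a log2 ratio of 1.96 (interval 1.68 to 2.27). In keratinocyte clusters the levels were 3.998 and 30.7, the first of which was at the T cell background. The cluster of TLR9agonist_LW led by Krt15 and Col17a1, markers of basal and follicle keratinocytes, had 82.1. The WT_LW cluster also led by Krt15 and Col17a1 had 4.46, though its further leading genes differed. The cluster led by Klk7, Krt1 and Krt6b had 13.2.

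In fibroblasts Inhba went the other way and was lower in TLR9agonist_LW, at 97.6 against 136 CPM (log2 ratio -0.48, interval -0.57 to -0.40). The gated fibroblasts of WT_LW held 1996 Inhba UMIs, of which 191 lay in 1 cell. Upper fibroblasts, with more of Crabp1, Prdm1, Grem1 and similar markers, had 140 and 116, and deep fibroblasts, with more of Clec3b, Plac8, Gpx3 and similar markers, had 75.6 and 92.0. Cells between the marker sets had 168 and 84.2. By cluster the level was lower in TLR9agonist_LW on both sides, at 109 against 147 in the clusters led by Clec3b and 84.7 against 124 in those led by Crabp1, so the higher level of deep fibroblasts was not seen with whole clusters.

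**Figure D3:**
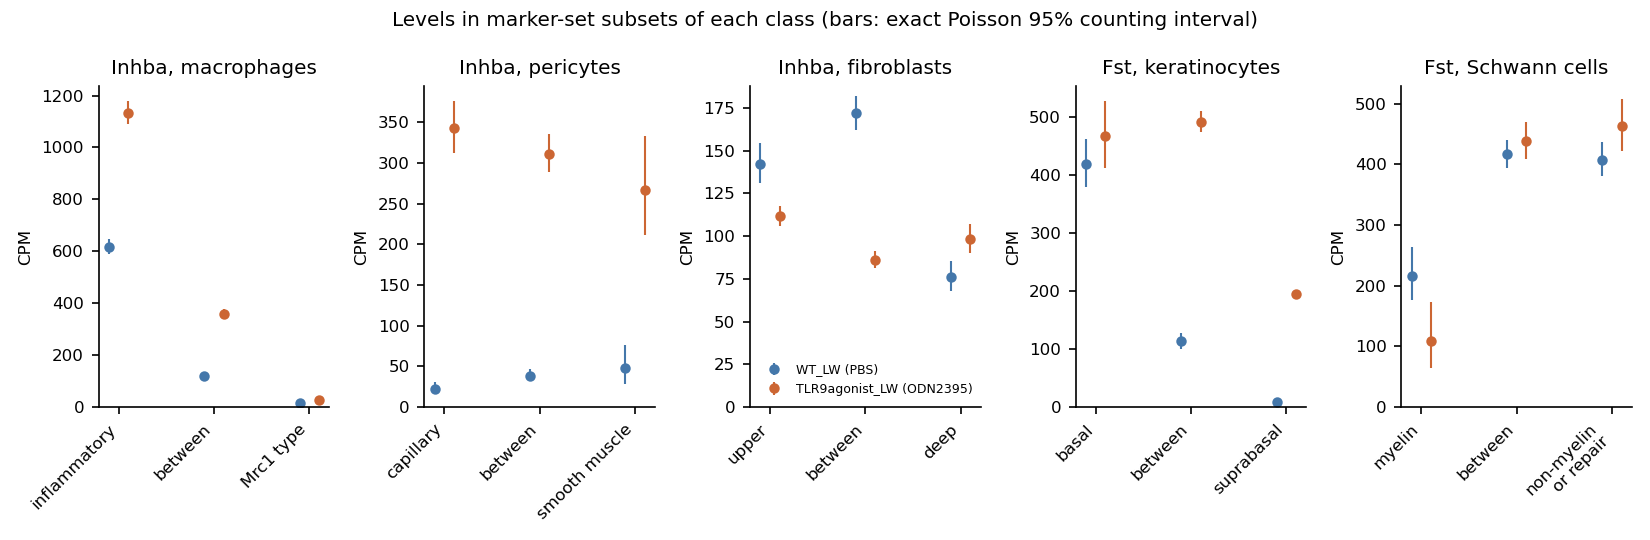
CPM of Inhba in subsets of macrophages, pericytes and fibroblasts and of Fst in subsets of keratinocytes and Schwann cells, using marker-named clusters, with WT_LW in blue and TLR9agonist_LW in orange and exact Poisson 95% intervals. Macrophages with inflammatory markers stand far above the Mrc1 type in both libraries, and suprabasal keratinocytes go from 9.07 to 195 for Fst.

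Inhbb, the beta B subunit, was a gene of fibroblasts, endothelial cells, pericytes and keratinocytes, and not of macrophages. In fibroblasts it was counted at 29.98 CPM in WT_LW and 43.7 in TLR9agonist_LW (log2 ratio 0.54, interval 0.38 to 0.70), the opposite direction to Inhba in the same cells. Upper fibroblasts had the highest level, 56.1 and 70.9, against 11.6 and 18.9 in deep fibroblasts. In macrophages 7 and 8 UMIs were found in all, which was within the T cell background of 0.862 and 1.75 CPM.

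Endothelial cells showed the widest gap of Inhbb. They had 23.5 CPM in WT_LW (116 UMIs in 624 cells) and 90.9 in TLR9agonist_LW (310 UMIs in 309 cells), a log2 ratio of 1.95 (interval 1.64 to 2.27), and 9.94% and 37.5% of them held a UMI, or 3.66% and 8.44% after thinning. Inhbb thus was led by fibroblasts in WT_LW, with an interval that overlapped that of endothelial cells, and by endothelial cells in TLR9agonist_LW. In pericytes (18.5 and 14.7) the interval of the log2 ratio, -0.93 to 0.25, held 0, and in keratinocytes (12.0 and 8.54) the log2 ratio was -0.49 (interval -0.82 to -0.16).

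Fst, which encodes follistatin, was highest in Schwann cells, the glia of skin nerves, in both libraries when whole gated classes were compared. Basal keratinocytes of the named clusters reached a similar level, and the Krt15-led cluster of TLR9agonist_LW (552 CPM) stood above the Schwann cell cluster there (428). Gated Schwann cells had 411 CPM in WT_LW (interval 393 to 429) and 500 in TLR9agonist_LW (interval 466 to 537), and 67.1% and 66.4% of them held a UMI. The next class stood 3.09 times lower in WT_LW, where it was fibroblasts, and 2.10 times lower in TLR9agonist_LW, where it was keratinocytes. Within Schwann cells, those with more non-myelin or repair markers (Ngfr, Gfra3, Scn7a and others) had 430 and 595, and those with more myelin markers (Mbp, Mag and others) had 243 and 70.2, the last from 4 UMIs in 8 cells. The log2 ratio in gated Schwann cells was 0.29 (interval 0.16 to 0.41), but in whole Schwann clusters, with 397 and 428 CPM, it was 0.11 (interval 0.01 to 0.21), so the libraries were close for Fst in this class.

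Keratinocytes were where Fst differed between the libraries. They had 83.2 CPM in WT_LW (755 UMIs) and 238 in TLR9agonist_LW (7151 UMIs), a ratio of 2.86 and a log2 ratio of 1.52 (interval 1.41 to 1.63). In keratinocyte clusters the levels were 82.9 and 262 and the log2 ratio 1.66 (interval 1.55 to 1.77). The share of those cells with a UMI was 16.5% and 48.6%, and 7.10% and 19.3% after thinning. In T cells, as given above, Fst went from 4.04 to 9.43 in the same direction, at a far lower level.

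Among the marker-set subsets the gap was widest in cells with more suprabasal markers. Suprabasal cells have left the basal layer and begun to differentiate. The subsets rest on detected markers, and cells of the keratinocyte clusters had a median of 8330 UMIs in WT_LW and 23116 in TLR9agonist_LW. The part of depth and of free keratinocyte RNA in which cells fell into each subset was not tested. Cells of the keratinocyte clusters with more basal markers (Krt15, Col17a1, Itga6 and others) had 419 CPM in WT_LW and 468 in TLR9agonist_LW, from 71 and 30 cells, and the interval of their log2 ratio, -0.07 to 0.39, held 0. Cells with more suprabasal markers (Krt1, Krt10, Krtdap and others) had 9.07 and 195, from 48 and 4156 UMIs in 358 and 900 cells. Their log2 ratio was 4.42 (interval 4.01 to 4.87). The WT_LW level was low but above that of T cell clusters of WT_LW (4.57, interval 3.63 to 5.67). Cells between the marker sets had 114 and 492. By cluster, Fst stood at 184 and 4.42 in the WT_LW clusters led by Krt15 and by Flg and Crct1, genes of the outer epidermis, and at 552 and 163 in the TLR9agonist_LW clusters led by Krt15 and by Klk7 and Krt1. The Krt15-led clusters, of 245 and 331 cells, thus differed between the libraries although the basal subsets, of 71 and 30 cells, were close. Most cells of these clusters were not in the basal subsets. Beyond Krt15 and Col17a1 the leading genes differed, with Krt5, Ccl27a and Alox12e in WT_LW and Il24, Fcgbp and Dsg2 in TLR9agonist_LW. The clusters were therefore not a second measure of the same basal cells. The suprabasal cells of the libraries thus also differed in their leading genes, and the part of that difference in the Fst gap was not tested.

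In fibroblasts Fst was 133 CPM in WT_LW and 107 in TLR9agonist_LW (log2 ratio -0.31, interval -0.39 to -0.23). Deep fibroblasts (166 and 145) stood above upper ones (108 and 82.4) in both libraries, the reverse of the order of Inhbb. Pericytes had 24.7 and 41.1 (log2 ratio 0.74, interval 0.33 to 1.14). Macrophages, at 4.30 and 8.68, were close to the T cell level in each library, so their log2 ratio of 1.01 was not read as expression.

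The share of all Fst UMIs that came from each class differed accordingly. With named clusters, Schwann cells gave 41.7% of Fst UMIs in WT_LW but 10.3% in TLR9agonist_LW, and keratinocytes 13.5% and 59.2%. For Inhba the share of macrophages was 50.5% and 42.0%, that of fibroblasts 39.5% and 31.4%, that of pericytes 3.21% and 13.1% and that of keratinocytes 0.673% and 8.99%. These shares depend on how many cells of each class were captured as well as on the level per cell, and the capture differed, for example 745 and 469 cells in Schwann clusters and 593 and 1193 in keratinocyte clusters.

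**Figure D4:**
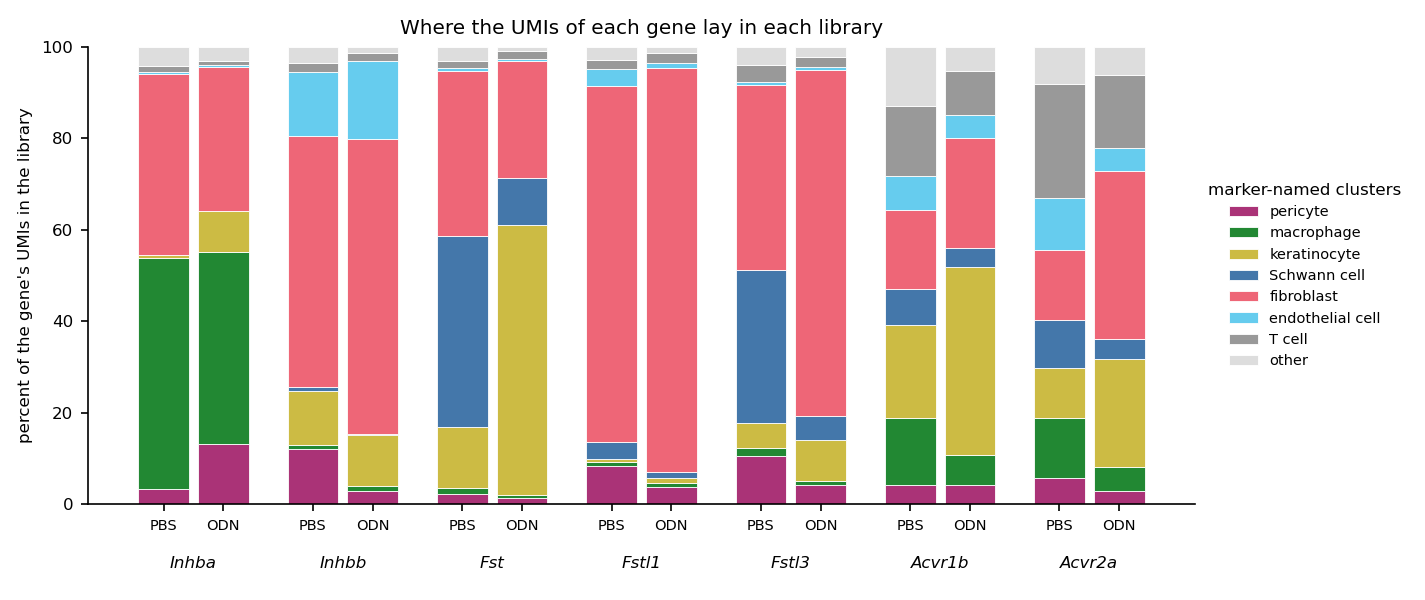
Percent of the UMIs of each gene that lay in each class of marker-named clusters, as stacked bars for WT_LW (PBS) and TLR9agonist_LW (ODN). The Fst bar is led by Schwann cells (41.7%) in WT_LW and by keratinocytes (59.2%) in TLR9agonist_LW, whereas fibroblasts lead Fstl1 in both, at 77.8% and 88.4%.

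Fstl1 was the most abundant member and marked the mesenchyme. Fibroblasts had 3361 CPM in WT_LW and 2523 in TLR9agonist_LW, with a UMI in 97.9% and 99.2% of cells, followed by pericytes with 1076 and 847. Schwann cells (440 and 416) and endothelial cells (461 and 208) came next, and keratinocytes (58.1 and 42.1) and macrophages (44.95 and 80.2) stood under the T cell levels of 65.6 and 88.7. Deep fibroblasts (3655 and 2829) were above upper ones (2373 and 2151). The log2 ratio was -0.41 (interval -0.43 to -0.40) in fibroblasts, -0.34 (interval -0.42 to -0.27) in pericytes and -1.15 (interval -1.27 to -1.02) in endothelial cells, and its interval held 0 in Schwann cells (-0.21 to 0.05).

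Fstl3, the other activin binder, was found in Schwann cells, fibroblasts and pericytes, and its leading class differed between the libraries. Schwann cells had 60.4 CPM in WT_LW and 32.9 in TLR9agonist_LW (log2 ratio -0.88, interval -1.33 to -0.45). Fibroblasts had 26.9 and 44.0 (log2 ratio 0.71, interval 0.54 to 0.88), so the directions were opposite. Upper fibroblasts (48.6 and 57.6) stood above deep ones (16.5 and 26.1). Pericytes had 20.9 and 17.8, keratinocytes 6.39 and 5.77, and in both the interval of the log2 ratio held 0.

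The receptors were low in every class and lay close together. Acvr1b lay between 4.51 and 14.2 CPM in the 5 main classes of WT_LW and between 5.01 and 9.004 in those of TLR9agonist_LW, and was highest in keratinocytes in both. Acvr2a lay between 15.7 and 29.6 in WT_LW, with Schwann cells first, and between 12.0 and 21.2 in TLR9agonist_LW. Endothelial cells, outside these 5, had 35.1 and 19.3 of Acvr2a (log2 ratio -0.86, interval -1.29 to -0.44). Gated T cells had 20.6 and 13.3 of Acvr2a, and 4.24 and 3.14 of Acvr1b. In WT_LW the Acvr2a levels of fibroblasts, pericytes, macrophages and keratinocytes were thus under that of T cells. Neither receptor reached a 2-fold gap between the libraries in any of the 5 classes. In fibroblasts Acvr2a was higher in TLR9agonist_LW (15.7 and 21.2, log2 ratio 0.43, interval 0.21 to 0.66), and in keratinocytes Acvr1b was lower (14.2 and 9.004, log2 ratio -0.66, interval -0.97 to -0.35).

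Counted over the members with at least 50 UMIs in a class over both libraries, a gap of 2-fold or more was reached by 1 of 6 members in pericytes (Inhba), where 13.4% of all genes counted did so. It was reached by 2 of 5 in macrophages (Inhba and Fst, the latter at background), where 7.49% of all genes did. In keratinocytes it was 2 of 7 (Inhba and Fst) beside 19.1%, in Schwann cells 0 of 5 beside 6.25%, and in fibroblasts 0 of 7 beside 10.4%. All members past 2-fold in these 5 classes were higher in TLR9agonist_LW. Over all genes counted, 257 were higher and 948 lower in pericytes, 346 and 386 in macrophages, and 390 and 1826 in keratinocytes. In endothelial cells, left out of this count, Inhbb was past 2-fold higher (log2 ratio 1.95) and Fstl1 past 2-fold lower (-1.15). Of the 7 members, by the marker gate, Fst in Schwann cells and Fstl1 in fibroblasts had a highest class that was the same in both libraries and at least 2-fold above the next, over 8 classes with at least 50 cells in each library, which 19.9% of 13563 genes had. With marker-named clusters Fst in Schwann cells of TLR9agonist_LW was 1.63 times the next class and did not reach 2-fold. Since these levels chose the members, nothing is read from the shares.

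A gene of middle rank did not stand at 0 on this scale. The median log2 ratio of all genes with at least 200 UMIs was between -0.38 in keratinocytes and -0.16 in Schwann cells. Relative to that median the gaps of Inhba were 3.30 in pericytes, 1.22 in macrophages, 2.35 in keratinocytes and -0.21 in fibroblasts, and that of Fst was 1.90 in keratinocytes and -0.04 in fibroblasts. Of the fibroblast ratios given as below 0, those of Inhba, Fst, Fstl1 and Acvr1b thus kept their sign but shrank. With the marker gate, the ratios that changed sign in the 5 main classes and endothelial cells were those of Fstl3 and Acvr2a in pericytes and keratinocytes, of Fstl1 and Acvr1b in Schwann cells and of Acvr1b in endothelial cells.

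**Figure D5:**
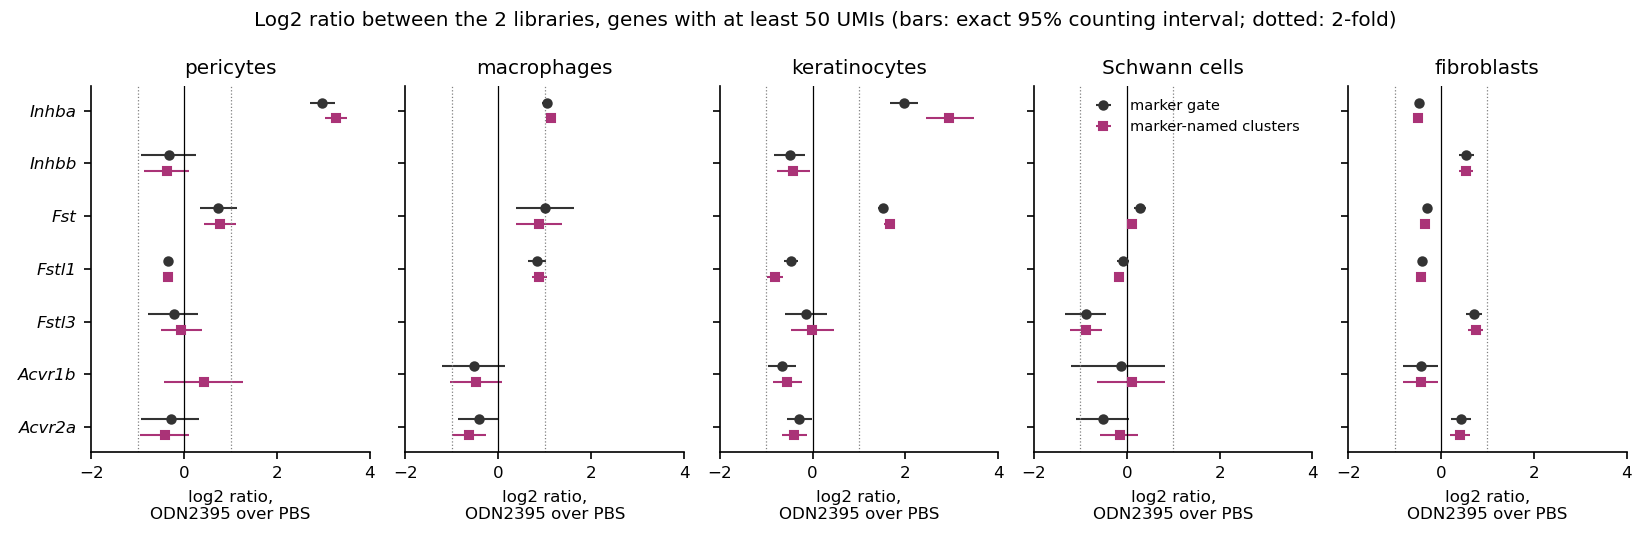
Log2 ratio of TLR9agonist_LW (ODN2395) to WT_LW (PBS) for each gene with at least 50 UMIs in 5 cell classes, by the marker gate (black) and by marker-named clusters (purple), with exact 95% counting intervals and dotted lines at 2-fold. Inhba in pericytes lies farthest to the right, at 2.98 and 3.26, and no member lies past 2-fold in fibroblasts or Schwann cells.

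Other genes of the pathway were taken from a list of 29 that named ligand subunits, receptors, SMAD relay, binders, processing enzymes and target genes. In pericytes 14 of them had at least 50 UMIs, of which 1 was at least 2-fold higher (Smad7, the inhibitory SMAD that TGF-beta signals induce) and 1 was at least 2-fold lower (Zfyve9, which presents SMAD2 to the receptor) in TLR9agonist_LW. Their median log2 ratio was -0.18, beside -0.40 for all genes counted. Smad7 went from 147 to 324 CPM in pericytes, a log2 ratio of 1.14 (interval 0.98 to 1.29), and from 60.9 to 150 in fibroblasts, a log2 ratio of 1.30 (interval 1.19 to 1.40). In macrophages, where it stood at 72.2 and 72.1, its log2 ratio was -0.00 (interval -0.18 to 0.18).

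The remaining target genes did not follow 1 direction. In fibroblasts 20 of the list were counted, with 1 higher (Smad7) and 2 lower (Tgfbi and Inha), at a median of -0.36 beside -0.27 for all genes. Tgfbi, a TGF-beta-induced matrix protein, was at 254 and 116 CPM there, and at 1130 and 506 in macrophages, where it was the only one of 14 past 2-fold (median -0.20 beside -0.15). In keratinocytes 15 were counted, with 1 higher (Smad3, 7.83 and 20.1) and 1 lower, at a median of -0.11 beside -0.44. In Schwann cells 15 were counted, with Ctgf, a matricellular target gene, higher (17.1 and 62.6) and none lower, at a median of -0.17 beside -0.18. Ligand subunits other than the members were scarce, and Inhbc, Inhbe, Mstn and Nodal did not reach 50 UMIs in any of these 5 classes.

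Genes whose pattern was most like that of a member were sought over 18 combinations of class and library with at least 50 cells, by Pearson's r of log2(level + 10), with levels in CPM, leaving out the gate markers. The points share 2 libraries and are not independent, so the values are a description. For Inhba the closest were Guca1a (r = 0.858), C3 (0.839) and Dse (0.803), and Inhbb had Bmp2 (0.920) and Arhgap29 (0.885) among its 3 closest. Fst was closest to Pak3 (0.933), Aldh1a3 (0.917) and Kif21a (0.911). Fstl1 was closest to Bicc1 (0.974), Selm (0.972) and Triqk (0.966), and Fstl3 to Vgll3 (0.972), Rab34 (0.965) and Col16a1 (0.963). For the receptors r was lower for Acvr1b, with Slc27a4 (0.822), Rdh12 (0.797) and Lcn2 (0.780), than for Acvr2a, with Rgp1 (0.916) and Zdhhc16 (0.894) among its 3 closest.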

How the data were processed

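Single-cell RNA of mouse wound skin was sequenced in 2 libraries, 1 per treatment. The results of the study speak of 6 mice per group and its methods of 5 samples per group. The deposited values are UMI counts per gene and cell barcode, made by the authors with Cell Ranger 4.0.0 per the file headers. The submitters' processing notes also name fastp, Seurat and build mm9. The files hold no coordinates.

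Barcodes with at least 500 UMIs, 300 genes and at most 15% mitochondrial UMIs were kept (11443 of 12800 in WT_LW, 13206 of 13751 in TLR9agonist_LW). The cells with the highest doublet scores were removed, at 0.8% per 1000 cells (1048 and 1395). The libraries held 99374045 and 132339022 UMIs before filtering. Cells were gated by 10 lists of 8 markers, clustered in each library without the members (scanpy 1.11.5, leidenalg 0.10.2), and split into subsets where 1 list of 6 markers led by at least 2. UMIs were summed per class and library and divided by all UMIs of the class. Exact Poisson intervals were used for levels, exact intervals given the total for ratios and Clopper-Pearson intervals for shares (scipy 1.17.1), all at 95%. PCR and capture error are not covered, nor is variation between cells in the intervals of levels and ratios. The ratio intervals and 2-fold calls were checked on Poisson counts simulated from the class sums, which is the model the intervals assume. Those counts lack variation between cells. Filtering, doublet removal, clustering and subsets were not tested on simulated data. Named genes were the members, 29 pathway genes and, for each member, the 3 genes most like it. A few named genes are not reported here. The members and lists were chosen with earlier results of these data known. Alternatives were a stricter cell filter, doublets kept, a stricter and a looser gate, a cluster gate, equal weight per cell, median-centred scaling and other count minimums, with marker-named clusters and a gate free of other classes' markers added after seeing the data. Promoter sequences came from RefSeq (GRCm38.p6), in which 6 of 7 members matched.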

Additional observations from a re-analysis of the deposited data

Results flagged for a closer look

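For 6 members the log2 ratio of TLR9agonist_LW to WT_LW was above 0 in 1 cell class and below 0 in another, by marker-named clusters and with counting intervals that left out 0. Each class had 1 library per treatment, so the difference between classes was not tested. Inhba stood at 3.26 in pericytes and -0.49 in fibroblasts. Inhbb stood at 1.86 in endothelial cells and -0.42 in keratinocytes, where it came to 0.0075 relative to the median gene. Fst stood at 1.66 in keratinocytes and -0.34 in fibroblasts. Fstl1 stood at 0.88 in macrophages, where its level was under that of T cells, and at -0.96 in endothelial cells. Fstl3 stood at 0.75 in fibroblasts and -0.87 in Schwann cells. Acvr2a stood at 0.41 in fibroblasts, where its WT_LW level was under that of T cells, and at -0.73 in endothelial cells.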

How the results depend on the processing

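Over 35 log2 ratios and 275 alternative values, 264 kept their direction and 11 did not, 7 of these under median-centred scaling. Of all values 222 lay within the interval of the reported ratio. For Inhba in pericytes (2.98) the stricter gate gave 2.42, the cluster gate and marker-named clusters 3.26 and median-centred scaling 3.30. For Inhba in macrophages (1.06) the stricter gate gave 0.88, the looser gate 0.95, equal weight per cell 0.63 and median-centred scaling 1.22. The cluster gate turned it to -3.33, since that gate by construction leaves out the F10-led cluster of TLR9agonist_LW. It keeps the Inhba-high cluster of WT_LW led by Chil3. For Inhba in keratinocytes (1.96) the stricter gate gave 1.44, the looser gate 1.42, the cluster gate 3.05, marker-named clusters 2.94, equal weight 1.02 and median-centred scaling 2.35. For Fst in keratinocytes (1.52) marker-named clusters gave 1.66, equal weight 1.15 and median-centred scaling 1.90. For Fst in Schwann cells (0.29) the stricter gate gave 0.030, marker-named clusters 0.11 and median-centred scaling 0.44. For fibroblasts, Inhba (-0.48) went to -0.25 with equal weight and -0.21 with median-centred scaling, and Fst (-0.31) to -0.21 with the stricter gate, -0.22 with equal weight and -0.039 with median-centred scaling. Members past 2-fold in macrophages were 2, and 1 with at least 200 UMIs or with marker-named clusters. Where not named, the cause was not tested. The gate free of other classes' markers left at most 26 cells of a class in TLR9agonist_LW and gave no ratio. The cluster gate left no Schwann cell class there. No paired analysis was possible because each treatment had 1 library.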
